A study of Mus musculus with 9 samples.

Results

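Mitochondrial ribosomal proteins are encoded by nuclear genes, made on cytosolic ribosomes and imported into mitochondria, where they join 2 mitochondrially encoded rRNAs to form the mitochondrial ribosome. Here they were followed in RNA from mouse acute myeloid leukaemia (AML) cells. All gene symbols beginning with Mrpl or Mrps and a number were taken and those marked as pseudogenes were left out, which gave 78 genes of 55291 symbols counted, while 6 pseudogene symbols were set aside. The 78 comprised 51 genes of the large (39S) subunit, 26 of the small (28S) subunit and Mrps36, whose product was first described as a ribosomal protein and is now known as a part of the alpha-ketoglutarate dehydrogenase complex.

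The mitochondrial ribosome translates the few mRNAs of the mitochondrial genome, all of which code for subunits of the oxidative phosphorylation complexes. Part of its proteins descend from the bacterial ribosome and part are found in mitochondria alone. In AML, blasts are known for their dependence on mitochondrial translation, and inhibitors of it have been tested against them.

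Cells of 1 genotype were compared in 3 places, and every group carried it: Trp53(R172H/delta), where R172H replaces 1 amino acid of the p53 protein and delta is the other allele. The groups were cells taken from the lungs of WT recipient mice, cells taken from their bone marrow and cells grown in vitro, with 3 libraries each, and the series concerns how tissue microenvironments differ in AML. The labels do not say whether the libraries of a group came from separate mice or cultures, how the cells were sorted, how old the mice were or whether the leukaemia was 1 clone. The p-values therefore measure the spread between these libraries, which may be technical.

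Each library held between 27485111 and 38761363 counted reads, so that 1 read was worth 0.0249 to 0.0371 CPM, the unit of level used throughout (reads relative to the library total, scaled by TMM factors of 0.966 to 1.039). Myeloid progenitor markers were uneven in the cultures: Kit was at 1130.0 to 1214 CPM and Myb at 531 to 555 CPM, while Mpo and Cd34 did not exceed 0.0742 CPM and Cebpa had no read. Klf1, an erythroid transcription factor, lay between 261 and 334 CPM in all 9 libraries. The cells are therefore called by their label here. Markers of neutrophils, macrophages, lung epithelium, endothelium and T and NK cells are given with the comparisons below. B cell markers summed to 1.66 to 3.93 CPM in lung, 1.02 to 10.7 CPM in bone marrow and 0.4 to 0.594 CPM in culture. Stroma markers summed to 181 to 267 CPM in lung, 141 to 210 CPM in bone marrow and 239 to 255 CPM in culture. The stroma list was thus not confined to the tissues.

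As a whole, the genes were lowest in culture, highest in bone marrow and in between in lung. Their summed level was 5570.1, 5846 and 6414 CPM in lung libraries 1 to 3, 6606, 7562 and 6986 CPM in the bone marrow libraries, and 4908, 4654 and 4762 CPM in the culture libraries. The means were 5943 ± 430 CPM in lung, 7052 ± 481 CPM in bone marrow and 4775 ± 128 CPM in culture (SD, n = 3 each), and no library of 1 group fell within the range of another. These are bulk samples, in which fewer cells of a type and less RNA per cell cannot be told apart. The genes took 0.597% of all counted reads in lung, 0.719% in bone marrow and 0.466% in culture.

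**Figure D1:**
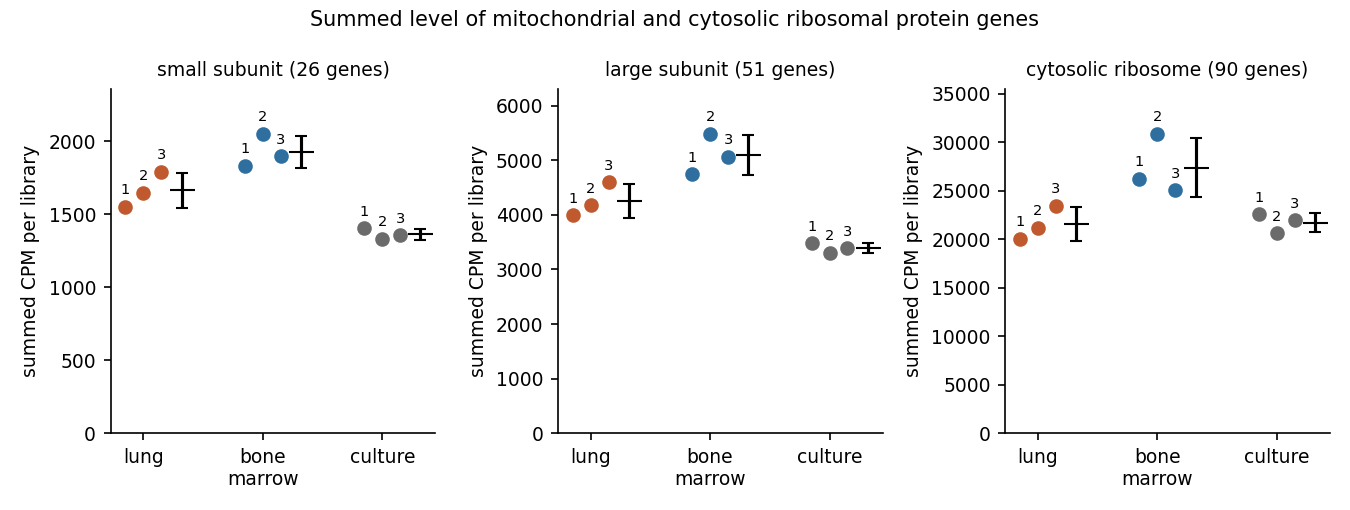
Summed CPM of the small-subunit genes, the large-subunit genes and, for scale, the cytosolic ribosomal protein genes, per library (points, numbered by library) in lung, bone marrow and culture. Black bars give the group mean and SD (n = 3). For both mitochondrial subunits the groups do not overlap and bone marrow lies highest, whereas the cytosolic sums of lung (20078 to 23445 CPM) and culture (20614 to 22608 CPM) overlap.

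Both subunits followed the same order. Small-subunit genes summed to 1664 ± 121 CPM in lung, 1927 ± 112 CPM in bone marrow and 1363 ± 36.8 CPM in culture (SD, n = 3). Large-subunit genes summed to 4258 ± 309 CPM in lung, 5099 ± 369 CPM in bone marrow and 3391 ± 90.1 CPM in culture. The small-to-large ratio differed by little but without overlap, at 0.388 to 0.395 in lung, 0.374 to 0.386 in bone marrow and 0.401 to 0.403 in culture. By group mean, 70 of the 77 genes that passed the low-count filter were highest in bone marrow, 4 in lung and 3 in culture, while 5243 of all 15066 tested genes were highest in bone marrow. Mrpl53 was removed by the filter, with 5 to 14 reads per library, and 88.0% of its exon bases lie within exons of Ccdc142os and Gm42688.

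Within groups the genes varied about as much as other genes. Their median coefficient of variation was 8.26% in lung, 8.94% in bone marrow and 4.21% in culture, against 7.95%, 10% and 4.19% for all tested genes averaging 10 CPM or more, in the same order of groups. They also deviated together: in lung library 3, 96.1% of the 77 genes lay above their lung mean, and in lung library 1 only 6.49% did. In the bone marrow libraries, 89.6% lay above the group mean in library 2 and 20.8% in library 1. The same share over all genes is not given here. The cytosolic ribosomal protein sum was also highest in lung library 3 (23445 CPM) and lowest in lung library 1 (20078 CPM). In bone marrow it was highest in library 2 (30874 CPM) but lowest in library 3 (25059 CPM).

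Bone marrow against culture asks how cells residing in the marrow differ from cells grown in vitro, and here most mitochondrial ribosomal protein genes were higher in bone marrow. Of 77 tested, 62 rose and 1 fell at an adjusted p under 0.05 (edgeR quasi-likelihood test, Benjamini-Hochberg over all 15066 genes), and 14 did not pass. Over all genes tested, 30.7% were called higher and 29.8% lower, or 31.3% and 35.9% of the genes averaging 10 CPM or more. The median change of the 77 genes was 0.56 on the log2 scale, a fold of 1.47, beside a median of 0.05 over all genes. The rises were moderate: 36 called genes exceeded 1.5-fold and 9 exceeded 2-fold. The CPM values of the groups did not overlap for 66 genes that were higher and 1 that was lower, or 87.0% of the 77, beside 67.2% of all tested genes.

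Both subunits took part. In the large subunit 41 of 50 tested genes rose and 1 fell, with a median log2 change of 0.58, and in the small subunit 20 of 26 rose and 0 fell, with a median of 0.52. For the small subunit, edgeR at an unadjusted p under 0.05 and DESeq2 also gave 20 higher and 0 lower. Genes with a bacterial counterpart rose in 36 of 46 cases and fell in 1. Genes of mitochondria-specific proteins rose in 25 of 30 and fell in 0, and for them edgeR at an unadjusted p under 0.05 and DESeq2 also gave 25 and 0. The median log2 changes were 0.53 for the bacterial class and 0.60 for the mitochondria-specific class.

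**Figure D2:**
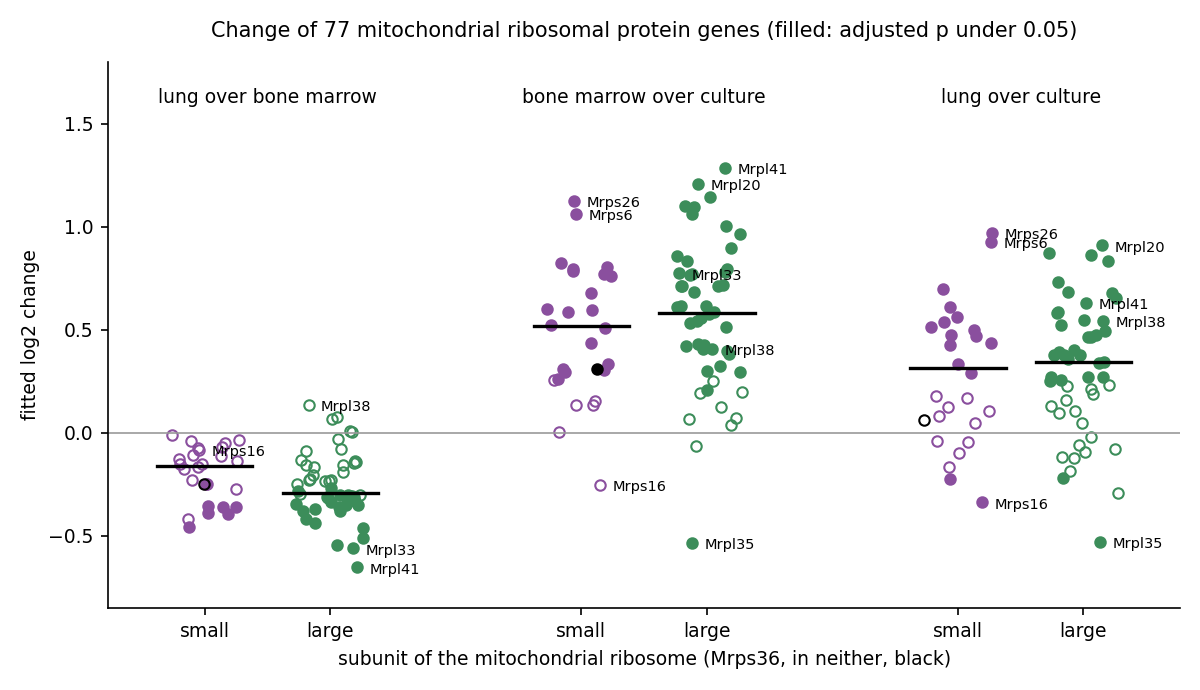
Fitted log2 change of each of 77 mitochondrial ribosomal protein genes in the 3 comparisons, by subunit, each positive where the first-named group is higher. Filled points passed an adjusted p under 0.05, horizontal lines are medians by subunit and Mrps36 is black. In bone marrow over culture nearly all points lie above 0 and Mrpl35 lies alone at -0.53; in lung over bone marrow no filled point lies above 0.

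The 5 largest rises in bone marrow were those of Mrpl41, Mrpl20, Mrpl11, Mrps26 and Mrpl12. Mrpl41, a mitochondria-specific protein of the large subunit, had 71.3, 97.6 and 82.2 CPM in bone marrow against 35.7, 33.1 and 34.3 CPM in culture. All marrow libraries lay above all culture libraries, and the log2 change was 1.28 ± 0.11 (SE, adjusted p = 5.8e-07 by edgeR). Mrpl20, whose bacterial counterpart binds the large rRNA early in assembly, had 114.1, 158.6 and 122.8 CPM in bone marrow against 60.0, 54.6 and 56.7 CPM in culture. Its log2 change was 1.21 ± 0.11 (adjusted p = 8.8e-07), with marrow library 2 the highest.

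The stalk of the large subunit, to which translation factors bind, was represented by Mrpl11 at its base and Mrpl12 in its mobile part. Mrpl11 had 72.2, 79.9 and 75.4 CPM in bone marrow against 37.1, 32.1 and 33.9 CPM in culture, a log2 change of 1.14 ± 0.09 (adjusted p = 2.1e-07). Mrpl12, which in human cells was also found to bind the mitochondrial RNA polymerase, had 185.1, 230.0 and 220.2 CPM in bone marrow against 101.2, 96.3 and 98.6 CPM in culture, a change of 1.10 ± 0.11 (adjusted p = 1.6e-06). Mrpl10, which anchors Mrpl12 to the ribosome, did not follow them, with 64.8, 76.5 and 68.4 CPM in bone marrow against 72.7, 72.6 and 73.8 CPM in culture (log2 change -0.06 ± 0.09, adjusted p = 0.54). The ranges of Mrpl10 overlap, whereas those of its 2 partners lie far apart.

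Mrps26, a mitochondria-specific protein of the small subunit, had 139.0, 137.7 and 124.1 CPM in bone marrow against 65.6, 63.0 and 55.2 CPM in culture, a log2 change of 1.12 ± 0.09 (adjusted p = 3.3e-07). Mrps6, a small-subunit protein with a bacterial counterpart, had fewer reads, with 17.4, 21.3 and 24.9 CPM in bone marrow against 11.3, 9.08 and 10.1 CPM in culture, and changed by 1.06 ± 0.15 (adjusted p = 3.2e-05); 19.9% of its exon bases lie within exons of Slc5a3 and Gm49711. Mrpl36, one of the smallest proteins of the large subunit, had 144.2, 156.7 and 156.3 CPM in bone marrow against 76.6, 63.7 and 74.0 CPM in culture (1.09 ± 0.09, adjusted p = 2.8e-07). None of these 3 genes had a marrow library within the culture range.

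Mrpl35 was the gene that fell. This large-subunit protein of bacterial ancestry had 46.6, 50.9 and 47.1 CPM in bone marrow against 74.1, 64.5 and 71.0 CPM in culture, a log2 change of -0.53 ± 0.10 (adjusted p = 0.00043). All 3 marrow libraries lay below all 3 culture libraries. Mrps16, a small-subunit protein mutated in a respiratory chain disease of humans, lay at 46.4, 60.9 and 49.0 CPM in bone marrow and 65.6, 58.6 and 62.1 CPM in culture, with overlapping ranges and an adjusted p of 0.11.

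Markers of other cells also moved in this comparison. The 8 neutrophil markers summed to 320.3, 566 and 1968 CPM in bone marrow libraries 1 to 3, against 1.17 to 2.34 CPM in culture, with reads for 8 of 8 in both groups. The 7 macrophage markers summed to 10.5 to 17.6 CPM in bone marrow, with Marco at 0, and to 0.0923 to 0.284 CPM in culture, with C1qa, C1qc and Marco at 0. The 7 progenitor markers summed to 1043 to 1203 CPM in bone marrow and 1667 to 1773 CPM in culture, where Cebpa was at 0. Kit and Myb carried most of these sums. Of 6 tested by the fit, Kit and Myb were called lower in bone marrow, whereas Cd34, Mpo and Spi1 were called higher. Without bone marrow library 3, which had the highest neutrophil sum, 58 genes were called higher and 1 lower, while the other marrow libraries still held 320.3 and 566 CPM of neutrophil markers. The part of these cells in the result was not tested.

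The promoters of the genes described are shown to let their upstream sequence be read beside their response. RefSeq windows (build GRCm38.p6, 250 bases before to 50 after the annotated start) were matched by symbol to 69 of the 78 genes, in 75 windows. Printed are the 120 bases before the start, 5′ to 3′ on the gene's strand, for the 5 largest rises in bone marrow, for Mrpl36, for Mrpl22, whose stretch holds a pair of different motifs, and for Mrpl35, which fell. Capitals mark exact matches, on either strand, to the NRF1 core GCGCATGCG, the ETS core CCGGAAG read by GABPA, the YY1 core AAGATGGCG, the E-box CACGTG or the CRE TGACGTCA. NRF1, GABPA and YY1 are known as regulators of nuclear genes for mitochondria, and the E-box is the site of MYC and related factors.
Mrpl41, chr2:24975099-24975218, minus strand: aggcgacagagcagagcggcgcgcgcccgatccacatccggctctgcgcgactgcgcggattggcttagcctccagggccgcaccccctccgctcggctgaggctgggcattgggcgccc
Mrpl20, chr4:155802758-155802877, plus strand: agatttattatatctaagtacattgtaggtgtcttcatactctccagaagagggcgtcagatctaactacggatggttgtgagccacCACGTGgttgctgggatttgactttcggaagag
Mrpl11, chr19:4962186-4962305, plus strand: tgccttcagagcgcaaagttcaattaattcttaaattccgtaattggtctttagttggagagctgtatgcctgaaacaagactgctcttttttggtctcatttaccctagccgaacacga
Mrps26, chr2:130563637-130563756, plus strand: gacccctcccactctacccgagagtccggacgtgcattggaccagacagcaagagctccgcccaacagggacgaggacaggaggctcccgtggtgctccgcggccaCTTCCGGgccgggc
Mrpl12, chr11:120484517-120484636, plus strand: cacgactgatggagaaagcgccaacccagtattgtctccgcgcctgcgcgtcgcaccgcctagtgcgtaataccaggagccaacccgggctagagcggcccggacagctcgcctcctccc
Mrpl36, chr13:73330889-73331008, plus strand: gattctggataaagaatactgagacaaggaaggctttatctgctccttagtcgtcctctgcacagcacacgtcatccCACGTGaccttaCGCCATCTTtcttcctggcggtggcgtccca
Mrpl22, chr11:58171544-58171663, plus strand: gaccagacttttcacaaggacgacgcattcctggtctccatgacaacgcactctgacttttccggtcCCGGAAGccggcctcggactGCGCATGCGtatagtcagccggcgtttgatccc
Mrpl35, chr6:71823785-71823904, minus strand: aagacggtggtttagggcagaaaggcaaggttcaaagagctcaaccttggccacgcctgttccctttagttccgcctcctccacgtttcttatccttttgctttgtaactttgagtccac

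Of the 75 windows, 26 (34.7%) held the ETS core, beside 8.86% of all 32851 windows in the RefSeq table and 17.5% of the 13204 windows of tested genes. The NRF1 core was in 7 (9.33%), beside 1.75% of all windows and 3.51% of those of tested genes, and the YY1 core in 8 (10.7%), beside 1.40% and 2.91% over the same sets. At least 1 of these 3 motifs was in 48.0% of the members' windows, 11.4% of all windows and 22.4% of those of tested genes. The E-box was in 9.33% of the members' windows, 7.15% of all and 9.81% of those of tested genes, and the CRE in 2.67%, 1.79% and 3.03% of the same sets. The 5 motifs do not contain one another, and a match is a description of letters, not a bound site.

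Changes of genes with and without a motif overlapped widely. The 25 tested genes with an ETS core had a median log2 change of 0.60 in bone marrow against culture (-0.25 to 1.12), and the 43 without one had a median of 0.44 (-0.53 to 1.28). With the NRF1 core the median of 7 genes was 0.43, against 0.59 for the 61 without it. For the YY1 core it was 0.64 in 8 genes, against 0.55 in the 60 without it. For the E-box it was 0.71 in 5 genes against 0.56 in 63, and for the CRE 0.74 in 2 genes against 0.57 in 66. Mrpl41, Mrpl11 and Mrpl12, among the largest rises, held none of the 5 motifs in their windows, whereas the ETS core of Mrps26 began 14 bases before the start and the E-box of Mrpl20 began 33 bases before it. Mrpl35 held a YY1 core 23 bases after the start, outside the printed stretch. Of the genes of the factors themselves, Nrf1 had 86.8, 86.3 and 93.0 CPM in bone marrow against 85.9, 93.6 and 88.0 CPM in culture. Neither it nor Yy1 was called in any comparison, whereas Gabpa and Myc were, with values given among the regulators of mitochondrial biogenesis.

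Lung against bone marrow asks how the cells taken from 2 tissues differ, and here mitochondrial ribosomal protein genes were lower in lung. Of 77 tested, 32 fell and 0 rose (edgeR, adjusted p under 0.05), and 45 did not pass. Without adjustment, 43 were lower and 0 higher at a p under 0.05, and DESeq2 called 31 lower and 0 higher. Over all genes 11.1% were called lower and 14.2% higher, and among genes averaging 10 CPM or more 12% and 16.9%. The median change of the 77 genes was -0.25 on the log2 scale, a fold of 0.843, and 72 of 77 estimates were negative. Over all genes tested the median was -0.01. The changes were small, and 1 called gene, Mrpl41, exceeded 1.5-fold.

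The count of genes that fell in lung rested in part on single libraries. It was 12 without bone marrow library 2, 11 without lung library 1 and 16 without lung library 2, and 15 when the 6 lung and bone marrow libraries were fitted without the cultures. The calls of these 4 fits were all among the 32. Lung and bone marrow values did not overlap for 38 genes, all lower in lung, or 49.4% of the 77, beside 36.6% of all tested genes.

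Large-subunit genes made up most of the calls. Of 50 large-subunit genes 25 fell, with a median log2 change of -0.29, and of 26 small-subunit genes 7 fell, with a median of -0.16. A difference between the subunits was not tested. The 5 largest falls were all in the large subunit, in Mrpl41, Mrpl33, Mrpl23, Mrpl52 and Mrpl11. The next, in the small-subunit gene Mrps35, was nearly as large as that of Mrpl11 (log2 change -0.46 ± 0.10, SE, adjusted p = 0.0054 by edgeR).

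Mrpl41 had 48.2, 54.4 and 57.1 CPM in lung against 71.3, 97.6 and 82.2 CPM in bone marrow, a log2 change of -0.65 ± 0.11 (SE, adjusted p = 0.0014 by edgeR). Mrpl33, whose bacterial counterpart lies near the exit site for tRNA, had 48.3, 53.1 and 53.8 CPM in lung against 65.1, 83.0 and 80.9 CPM in bone marrow (-0.56 ± 0.10, adjusted p = 0.0024). Mrpl52, a mitochondria-specific protein, had 117.4, 129.3 and 145.1 CPM in lung against 172.3, 216.3 and 170.2 CPM in bone marrow (-0.51 ± 0.12, adjusted p = 0.0071). In all 3 genes each lung library lay below each marrow library.

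Mrpl23, a protein at the tunnel through which the new chain leaves, had 12.6, 16.6 and 15.6 CPM in lung against 19.1, 23.9 and 22.3 CPM in bone marrow. Its log2 change was -0.54 ± 0.14 (adjusted p = 0.012), and the adjusted p was 0.052 without bone marrow library 2 and 0.053 without lung library 1. Mrpl11 had 53.0, 53.5 and 58.5 CPM in lung against 72.2, 79.9 and 75.4 CPM in bone marrow, a change of -0.46 ± 0.09 (adjusted p = 0.0029). Mrps14, a small-subunit protein of bacterial ancestry, had 155.7, 159.3 and 165.0 CPM in lung against 197.2, 206.6 and 212.0 CPM in bone marrow and changed by -0.36 ± 0.07 (adjusted p = 0.0037). For Mrpl23, Mrpl11 and Mrps14 lung and bone marrow did not overlap.

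Some genes that differed strongly from culture did not pass between the tissues. Mrps26 had 115.6, 112.5 and 132.0 CPM in lung against 139.0, 137.7 and 124.1 CPM in bone marrow, with overlapping ranges and an adjusted p of 0.24. Mrpl12 had 163.9, 165.5 and 212.0 CPM in lung against 185.1, 230.0 and 220.2 CPM in bone marrow, again overlapping, with an adjusted p of 0.13. A p that misses the threshold does not show equal levels: the log2 change of Mrpl12 was -0.23 ± 0.11.

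Host-cell markers differed between the tissues as well. Neutrophil markers summed to 10.7 to 78.8 CPM in lung and 320.3 to 1968 CPM in bone marrow, with reads for 8 of 8 in both. The 5 lung epithelial markers summed to 79.1, 37.0 and 13.8 CPM in lung libraries 1 to 3 and to at most 0.0929 CPM in bone marrow, with Sftpa1 at 0 there, and the 5 endothelial markers to 8.78 to 30.6 CPM in lung and 2.29 to 3.03 CPM in bone marrow. The 7 macrophage markers summed to 7.86 to 14.8 CPM in lung and 10.5 to 17.6 CPM in bone marrow. All 7 had reads in lung, and Marco was at 0 in bone marrow. By the fit, C1qa, C1qb, C1qc and Vcam1 were lower in lung and Csf1r higher, or 4 and 1 of 6 tested. The 5 T and NK cell markers summed to 2.46 to 3.35 CPM in lung and 0.625 to 3.16 CPM in bone marrow. Of 4 tested, Cd3g, Trac and Gzma were called higher in lung and Nkg7 was not. Of the lung libraries, library 1 had the highest neutrophil, epithelial, endothelial and macrophage sums and the lowest T and NK cell sum. It also had the lowest mitochondrial ribosomal sum, and a link was not tested. Without bone marrow library 3, which had the highest neutrophil sum, 31 genes were lower in lung and 0 higher, while the other marrow libraries still held 320.3 and 566 CPM of neutrophil markers. The part of these cells in the result was not tested.

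**Figure D3:**
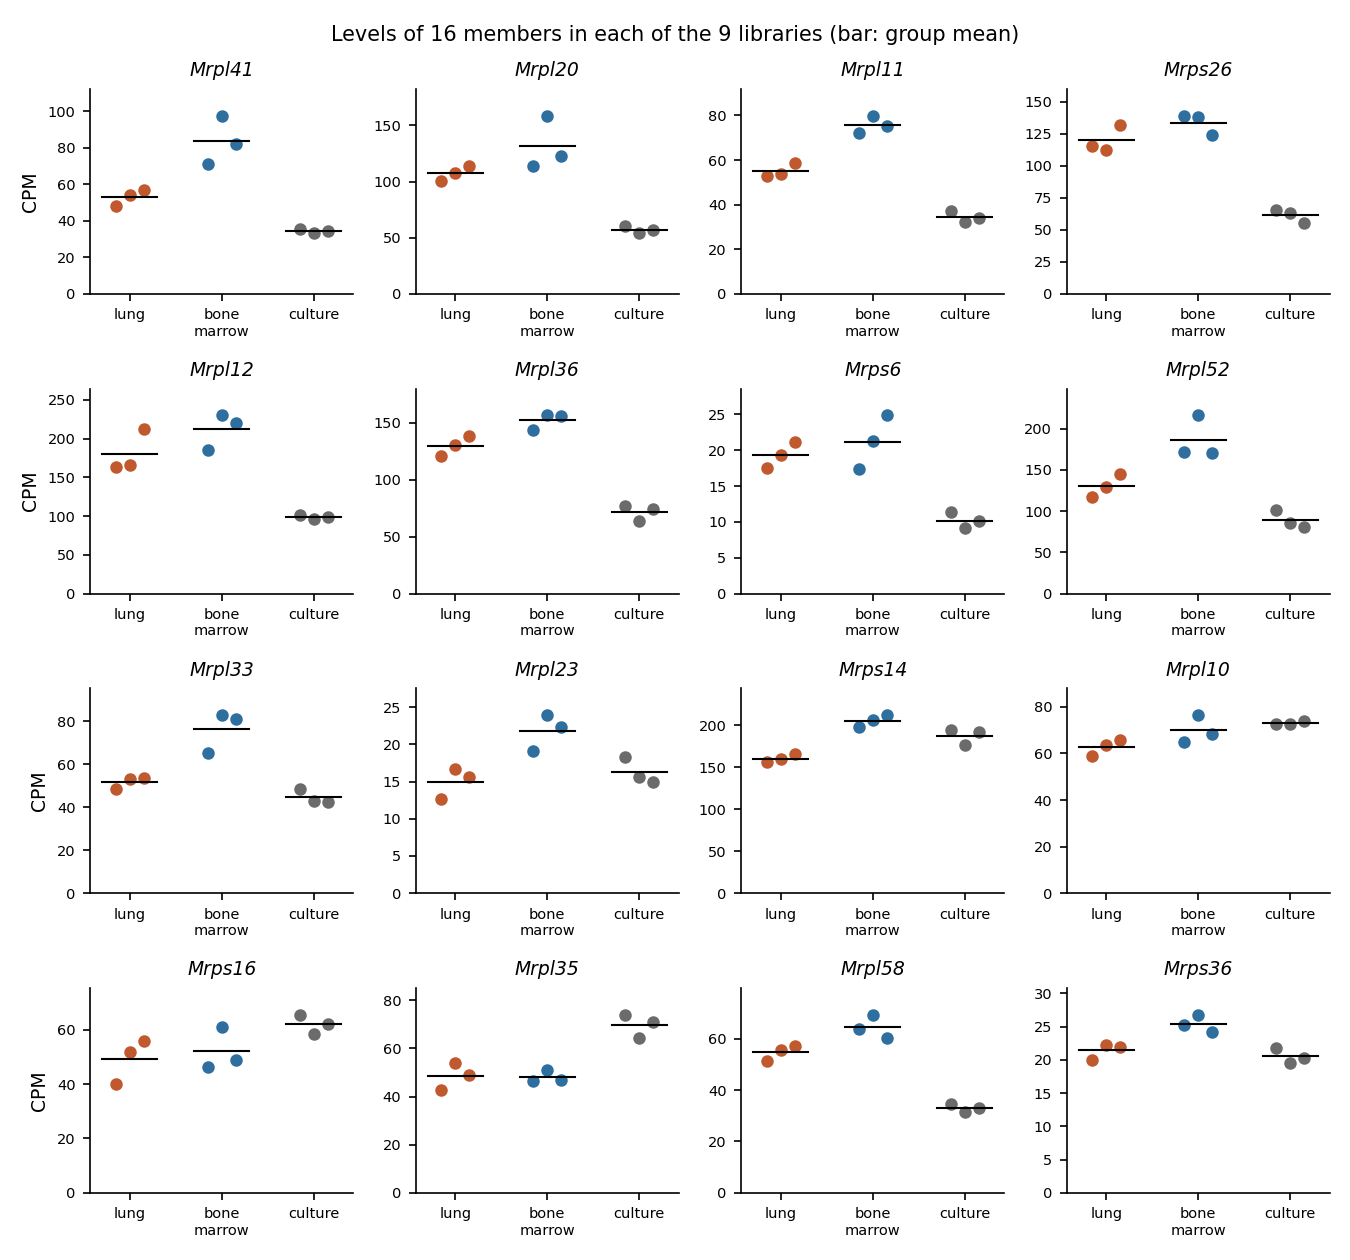
CPM of 16 of the 78 genes in each library of lung, bone marrow and culture (points, libraries 1 to 3 from left to right) with the group mean (bar). Most panels show bone marrow highest and culture lowest; Mrpl35 is lower in both tissues than in culture, and Mrpl23, Mrps14, Mrpl10 and Mrps16 have their lowest mean in lung.

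Lung against culture asks how cells residing in the lung differ from cells grown in vitro, and most genes that passed were higher in lung. It shares the culture libraries with bone marrow against culture and the lung libraries with lung against bone marrow. Of 77 genes 45 rose and 4 fell, and 28 did not pass (edgeR, adjusted p under 0.05), with a median log2 change of 0.33, a fold of 1.26. Over all genes 27.9% were called higher and 27% lower, and of genes averaging 10 CPM or more 30.4% and 31.1%. Among the called rises 14 exceeded 1.5-fold and 0 exceeded 2-fold. In the small subunit 14 of 26 rose and 2 fell, and in the large subunit 31 of 50 rose and 2 fell. The groups did not overlap for 49 genes that were higher in lung and 6 that were lower, or 71.4% of the 77, beside 66.8% of all tested genes.

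The largest rises in lung were those of Mrps26, Mrps6, Mrpl20, Mrpl12 and Mrpl36. Mrps26 had 115.6, 112.5 and 132.0 CPM in lung against 65.6, 63.0 and 55.2 CPM in culture, a log2 change of 0.97 ± 0.09 (SE, adjusted p = 1.7e-06 by edgeR). Mrps6 had 17.5, 19.3 and 21.1 CPM in lung against 11.3, 9.08 and 10.1 CPM in culture (0.93 ± 0.15, adjusted p = 0.00013). Mrpl20, Mrpl12 and Mrpl36 changed by 0.91, 0.87 and 0.86, with adjusted p of 1.5e-05, 1.7e-05 and 3.2e-06. For these 5 genes every lung library lay above every culture library.

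The 4 falls were Mrpl35, Mrps16, Mrps14 and Mrpl10. Mrpl35 had 42.6, 53.9 and 48.8 CPM in lung against 74.1, 64.5 and 71.0 CPM in culture, a log2 change of -0.53 ± 0.10 (adjusted p = 0.00057). It was thus below culture in both tissues, and lung and bone marrow did not differ beyond their spread (log2 change 0.01 ± 0.10, adjusted p = 0.97). Mrps16 had 39.9, 51.9 and 55.7 CPM in lung against 65.6, 58.6 and 62.1 CPM in culture (-0.34 ± 0.13, adjusted p = 0.041), and without lung library 1 its adjusted p was 0.18. Mrps14 changed by -0.23 ± 0.07 (adjusted p = 0.017) and Mrpl10 by -0.22 ± 0.09 (adjusted p = 0.046), and both lost the call without lung library 1, with adjusted p of 0.063 and 0.16. The lung libraries also held the epithelial and endothelial markers given above, while in culture these summed to at most 0.213 CPM, with Epcam at 0, and 1.69 to 1.81 CPM, with Tie1 at 0. The neutrophil, macrophage and T and NK cell sums of lung given above stood beside at most 2.34, 0.284 and 0.339 CPM in culture, where C1qa, C1qc, Marco and Cd3e were at 0. By the fit, 6 of 6 tested macrophage markers and 4 of 4 tested T and NK cell markers were higher in lung than in culture. Of the 8 neutrophil markers 0 passed there, although all 8 estimates were positive. The part of these cells in the result was not tested.

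Read across the comparisons, 26 of 77 genes were higher in both tissues than in culture without a call between the tissues, and 18 more were higher in both and lower in lung than in bone marrow. A further 11 were higher in bone marrow than in culture and lower in lung than in bone marrow, with no call between lung and culture. Another 8 passed no comparison. The shares of these patterns over all tested genes are not given here, so the counts only describe the 77 genes. The comparisons share libraries, so these calls are not independent. A high marrow value counts both as a rise over culture and as a fall in lung.

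Genes with another known role or a special place behaved as follows. Mrpl58, a peptidyl-tRNA hydrolase built into the large subunit that frees stalled chains, had 51.3, 55.6 and 57.3 CPM in lung, 63.6, 69.4 and 60.2 CPM in bone marrow and 34.5, 31.4 and 33.0 CPM in culture. It rose by 0.96 ± 0.09 in bone marrow against culture and by 0.73 ± 0.09 in lung against culture on the log2 scale (edgeR, adjusted p = 1e-06 and 1.7e-05), and lung and bone marrow did not pass (adjusted p = 0.072). Mrps36, which is no part of the ribosome, had 20.1, 22.3 and 22.0 CPM in lung, 25.3, 26.8 and 24.2 CPM in bone marrow and 21.9, 19.6 and 20.3 CPM in culture. It rose by 0.31 ± 0.10 in bone marrow against culture (adjusted p = 0.019; 0.098 without culture library 2) and passed neither other comparison; 17.3% of its transcript 50-mers occur in other genes, its pseudogenes among them.

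The 3 paralogs of bacterial protein S18 occupy different places, Mrps18c and Mrps18b in the small subunit and Mrps18a in the large. In bone marrow against culture, Mrps18a rose by 0.77 ± 0.09, Mrps18b by 0.51 ± 0.10 and Mrps18c by 0.52 ± 0.09 (log2, SE; adjusted p = 6.9e-06, 0.00071 and 0.0002 by edgeR). In lung against bone marrow, Mrps18c fell, with 49.7, 53.4 and 54.5 CPM in lung against 67.5, 70.0 and 64.3 CPM in bone marrow (-0.36 ± 0.09, adjusted p = 0.011). Mrps18b had a change of -0.07 ± 0.10 there and Mrps18a one of -0.25 ± 0.09, with adjusted p of 0.63 and 0.054. Exons of Gm16279 cover 30.5% of the exon bases of Mrps18b and those of Gm43511 cover 23.2% of Mrps18c, so their counts are less certain than those of Mrps18a.

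Levels of different genes were set beside each other per kilobase of merged exon in GENCODE M21 (GRCm38). Over the 77 genes the mean level of all 9 libraries had a median of 25.4 CPM per kb and spanned a 45.8-fold range. Mrps28 was highest, with 152 ± 7.21 CPM per kb in lung, 170 ± 11.8 in bone marrow and 139 ± 4.36 in culture (SD, n = 3). Mrpl28 followed with 123 ± 9.89 CPM per kb in lung, 156 ± 19.0 in bone marrow and 95.1 ± 1.01 in culture, and Mrpl52 with 118 ± 12.5, 168 ± 23.5 and 80.6 ± 9.75 CPM per kb in the same order. In lung and in bone marrow Mrpl28 and Mrpl52 did not differ beyond their spread.

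**Figure D4:**
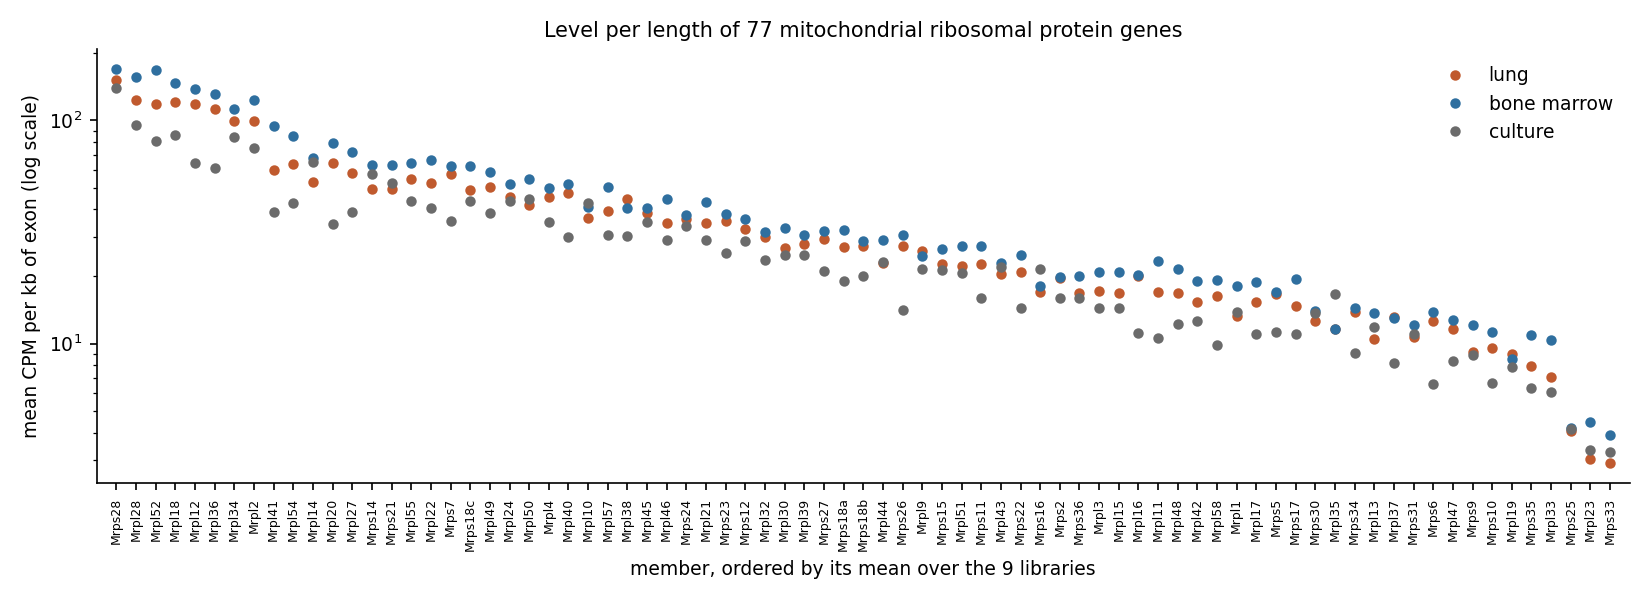
Mean CPM per kb of merged exon (log axis) of 77 mitochondrial ribosomal protein genes in lung, bone marrow and culture, ordered by the mean over all 9 libraries. The order runs from Mrps28 at 154 CPM per kb to Mrps33 at 3.36 CPM per kb. The lower and upper quartiles are 15.1 and 49.0 CPM per kb, and bone marrow is the highest point for most genes.

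The lowest levels per length were those of Mrps33, Mrpl23 and Mrps25, with means over the 9 libraries of 3.36, 3.62 and 4.14 CPM per kb. They depend on the length used. By the length of the principal transcript in the same annotation, Mrpl23 stood at 25.5 CPM per kb and Mrps25 and Mrps33 remained lowest at 4.48 and 5.07 CPM per kb, while Mrpl52, Mrpl36 and Mrpl28 led with 324, 164 and 161 CPM per kb. Mrps25 lies opposite Nr2c2, whose exons cover 69.8% of its exon bases, and 77.8% of those of Mrps34 are covered by other genes; how reads in such overlaps were counted is not given in the sources used here. The genes are spread over 17 chromosomes, with 11 on chromosome 11, 8 on chromosome 17 and 7 on chromosome 6.

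Of the mitochondrial ribosome's proteins, 5 carry other symbols, and against culture these did not move as a group. In bone marrow against culture 2 rose and 2 fell, beside 30.7% higher and 29.8% lower over all genes tested. Gadd45gip1, a large-subunit protein, rose by 0.78 ± 0.09 and Aurkaip1, a small-subunit protein, by 0.32 ± 0.08 (log2, SE; adjusted p = 9.5e-06 and 0.0046 by edgeR). Dap3, the GTP-binding protein of the small subunit, had 283.5, 288.1 and 260.5 CPM in bone marrow against 313.9, 315.1 and 332.7 CPM in culture and fell by 0.21, and Ptcd3, a small-subunit protein with RNA-binding repeats, fell by 0.26 (adjusted p = 0.029 and 0.024). Dap3 and Ptcd3 were also lower in lung than in culture, with log2 changes of -0.38 and -0.31 (adjusted p = 0.00094 and 0.011). Gadd45gip1 was higher there by 0.50 ± 0.09 (adjusted p = 0.00054 by edgeR). In lung against bone marrow all 5 estimates were negative, with a median log2 change of -0.22. Of these, 1 was called lower, Gadd45gip1 (adjusted p = 0.041 by edgeR), beside 11.1% of all genes tested.

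The machinery around the mitochondrial ribosome was counted in 4 lists, to be read beside all genes tested: 30.7% were called higher and 29.8% lower in bone marrow against culture, 27.9% and 27% in lung against culture, and 14.2% and 11.1% in lung against bone marrow. Of 24 genes of protein import, 19 rose and 0 fell in bone marrow against culture (19 and 0 also at an unadjusted p under 0.05 and by DESeq2), 15 rose and 1 fell in lung against culture, and 9 fell and 0 rose in lung against bone marrow (14 and 0 unadjusted, 9 and 0 by DESeq2). Tomm5, a small subunit of the outer-membrane translocase, rose by 1.62 ± 0.12 in bone marrow against culture and by 1.14 ± 0.12 in lung against culture. Of 24 genes of mitochondrial transcription and RNA handling, 17 rose and 0 fell in bone marrow against culture (edgeR unadjusted 18 and 0, DESeq2 16 and 0), with Slirp, an RNA-stabilising protein, at 0.97 ± 0.16. In lung against culture 14 of them rose and 2 fell. In lung against bone marrow 2 rose and 9 fell, Polrmt, the mitochondrial RNA polymerase, being higher in lung by 0.31 ± 0.09 and Mterf2, of the family of transcription termination factors, having a log2 change of -0.85 ± 0.20.

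Of 25 genes of ribosome assembly and rRNA modification, 14 rose and 3 fell in bone marrow against culture, 10 rose and 6 fell in lung against culture, and 1 rose and 5 fell in lung against bone marrow. Mrm3, an rRNA methyltransferase, had log2 changes of 1.10 ± 0.13 in bone marrow and 1.02 ± 0.13 in lung, each against culture, while Rpusd3, a pseudouridine synthase homologue, had -1.46 ± 0.20 and -1.44 ± 0.20. Of 13 translation factors 6 rose and 1 fell in bone marrow against culture, 6 rose and 2 fell in lung against culture, and 3 fell in lung against bone marrow, where 0 rose, also unadjusted and by DESeq2. Gfm2, a factor of ribosome recycling, was among the falls in both tissues, with log2 changes of -0.46 ± 0.11 in bone marrow and -0.39 ± 0.11 in lung against culture.

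**Figure D5:**
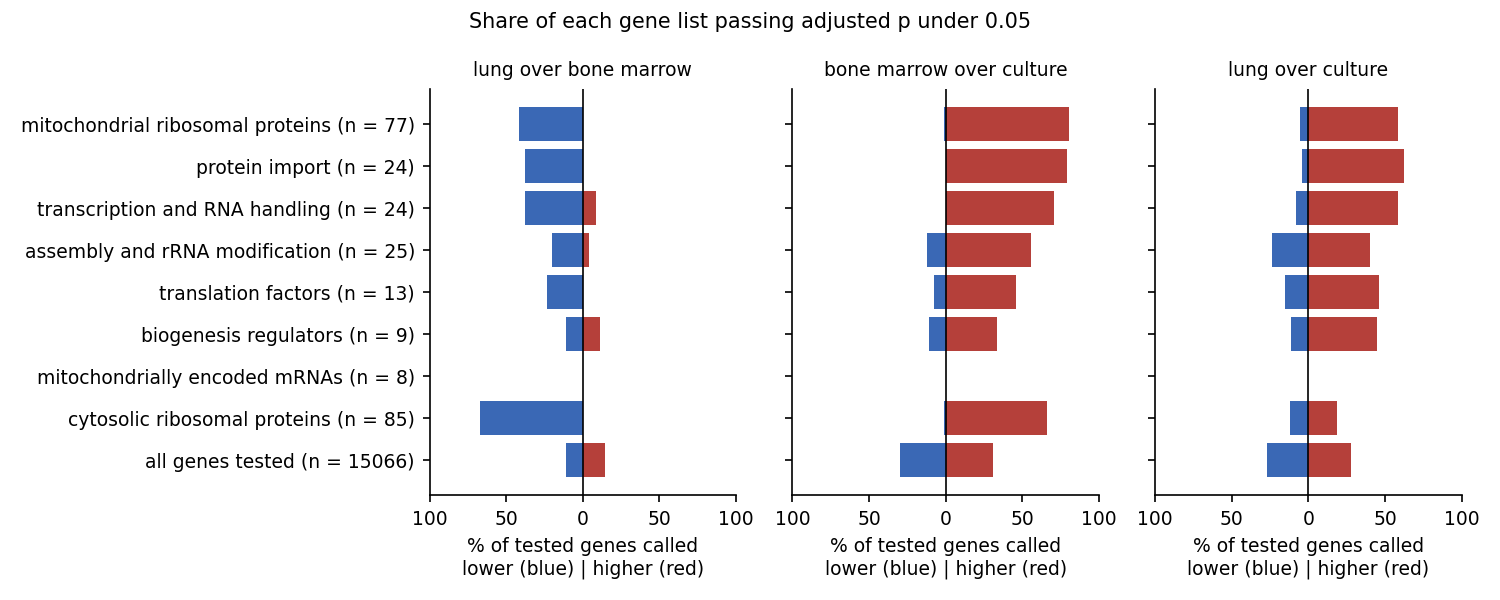
Share of the tested genes of each list called higher (red, right) or lower (blue, left) at an adjusted p under 0.05 in the 3 comparisons, each over the second-named group. The mitochondrial ribosomal protein bar reaches 62 of 77 in bone marrow over culture and 45 of 77 in lung over culture; the cytosolic bar reaches 56 of 85 and 16 of 85.

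Among products of the mitochondrial genome, 1 rRNA was called and the testable mRNAs were not. The mRNAs translated by the mitochondrial ribosome number 13, of which 8 could be tested and mt-Nd4l, mt-Co2, mt-Co3, mt-Atp6 and mt-Atp8 were at or near 0 reads, so counts of this genome are uncertain. In each of the 3 comparisons 0 of the 8 passed by edgeR or DESeq2, and at an unadjusted edgeR p under 0.05 1 was lower in lung against bone marrow, 1 lower in bone marrow against culture and 0 in lung against culture. The mRNA mt-Co1, for a subunit of cytochrome c oxidase, had 490.1, 558.5 and 613.5 CPM in lung, 466.4, 431.0 and 592.5 CPM in bone marrow and 537.6, 555.1 and 588.8 CPM in culture, in overlapping ranges. The large mitochondrial rRNA, mt-Rnr2, had 904, 986 and 1229 CPM in lung, 1202, 1140.0 and 1327 CPM in bone marrow and 819, 749 and 824 CPM in culture. It rose by 0.62 ± 0.11 in bone marrow and by 0.38 ± 0.11 in lung, each against culture (log2, adjusted p = 0.00023 and 0.0079 by edgeR). The small rRNA, mt-Rnr1, had 66.0, 56.6 and 89.8 CPM in lung, 70.8, 79.7 and 73.0 CPM in bone marrow and 90.7, 84.9 and 78.8 CPM in culture, and passed no comparison.

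The cytosolic ribosome moved with the mitochondrial one in part. Of 85 tested cytosolic ribosomal protein genes, 56 rose and 1 fell in bone marrow against culture, with a median log2 change of 0.44, and 57 fell and 0 rose in lung against bone marrow, with a median of -0.36 (70 and 0 unadjusted, 57 and 0 by DESeq2). In lung against culture 16 rose and 10 fell, with a median of 0.04, beside 0.33 for the mitochondrial genes. The ratio of the mitochondrial to the cytosolic sum was 0.274 to 0.277 in lung, 0.245 to 0.279 in bone marrow and 0.217 to 0.226 in culture, so that every tissue library exceeded every culture library.

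Of 9 tested regulators of mitochondrial biogenesis, 3 rose and 1 fell in bone marrow against culture. In lung against culture 4 rose and 1 fell, and in lung against bone marrow 1 rose and 1 fell. For this list and the cytosolic genes, the shares over all genes tested were 30.7% higher and 29.8% lower in bone marrow against culture. They were 27.9% and 27% in lung against culture, and 14.2% and 11.1% in lung against bone marrow. Esrra, a nuclear receptor that acts on genes for mitochondria, had 28.3, 31.4 and 28.2 CPM in lung, 30.4, 30.5 and 34.2 CPM in bone marrow and 22.5, 20.5 and 21.4 CPM in culture. Its log2 change was 0.56 ± 0.10 in bone marrow and 0.45 ± 0.10 in lung, each against culture (SE, adjusted p = 0.00025 and 0.0017 by edgeR), and each tissue library lay above each culture library. Gabpb2 and Gabpb1, partner subunits of GABPA, went opposite ways in lung against culture, with log2 changes of 0.41 ± 0.09 and -0.34 ± 0.11 (adjusted p = 0.0019 and 0.019). Myc, known to drive genes of ribosomes and mitochondria, had 521, 592 and 529 CPM in lung, 754, 691 and 736 CPM in bone marrow and 591, 624 and 585 CPM in culture. Its log2 change was -0.41 ± 0.08 in lung against bone marrow and 0.28 ± 0.08 in bone marrow against culture (adjusted p = 0.0026 and 0.0071 by edgeR). Pprc1, a coactivator of NRF1, was higher in lung than in bone marrow by 0.41 ± 0.07 and than in culture by 0.51 ± 0.07, and Gabpa, the ETS factor named above, was lower in bone marrow than in culture, with a log2 change of -0.27 ± 0.11 (adjusted p = 0.048).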

How the data were processed

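RNA of 9 libraries (3 each from lung, bone marrow and culture) was amplified with the SMART-seq v4 kit, per the labels' protocols. The submitters' processing notes name bcl2fastq, STAR and mm10; how reads were assigned to genes, and by which annotation, is not given in the sources used here. The authors deposited raw read counts per gene symbol. Without a statement on strand, a gene and its antisense partner cannot be told apart.

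Genes passing filterByExpr (15066) were scaled with TMM, and each comparison was a contrast in 1 quasi-likelihood fit of edgeR 4.0.16 (R 4.3.3) over all 9 libraries, with Benjamini-Hochberg adjustment over all genes and a threshold of 0.05. The code was checked on simulated counts. Alternatives were other scalings (RLE, upper quartile, library size), no filter or 1 CPM in 6 libraries, DESeq2 1.42.0, fits of 6 libraries, the replicate block and leaving out each library. The principal-transcript length and the scalings of the summed level were added after the data were seen. Members were matched to GENCODE M21 (78 of 78).

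The members, lists, motifs and alternatives were chosen with earlier results of these data known. The members named are the 5 largest called changes without overlap per direction and comparison, the 3 highest and 3 lowest per length, the S18 paralogs, Mrps36, Mrpl58, Mrpl12 and any removed by the filter. Each list names up to 2 called genes per direction. Genes printed outside this rule, such as Mrpl22, Mrps34, Mrps35, Nrf1 and Yy1, were chosen after their values were seen. The erythroid marker list is not reported here as a whole.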

Additional observations from a re-analysis of the deposited data

How the results depend on the processing

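The count of genes lower in lung than in bone marrow was the least stable: 32 in the reported fit, 29 to 41 over other scalings, filters and DESeq2, 15 when the 6 libraries of the 2 groups were fitted alone, and 11 to 39 when a library was left out. Genes higher in lung than in bone marrow numbered 0 throughout. In bone marrow against culture 52 to 66 genes were higher over all alternatives and 1 was lower, or 1 to 2 when a library was left out (2 without bone marrow library 2). In lung against culture 36 to 49 were higher and 4 lower in the reported fit, with 2 lower under upper-quartile scaling, 2 under library size scaling and 1 to 6 when a library was left out. The cause of these shifts was not tested. No gene named by the rule above changed direction where it was called.

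With the replicate number as a block the counts were 32 lower in lung than in bone marrow, 63 higher and 1 lower in bone marrow against culture, and 45 higher and 5 lower in lung against culture. The labels do not say that the numbers pair the samples. Residuals of lung and bone marrow libraries of the same number correlated at 0.03 to 0.27 over all tested genes, and those of different numbers at -0.24 to 0.14. Over the mitochondrial ribosomal protein genes alone the same-number values were 0.465, 0.379 and 0.310, against -0.298 to -0.007 for different numbers. Residuals from a group mean cancel within the group, so positive same-number values force negative values among the different numbers. The contrast of the sets is thus partly fixed in advance and cannot decide on pairing. Same-number pairs with culture lay between -0.306 and 0.061. The block left each gene named by the rule above on its side of the threshold.

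The ratio of summed levels ranged from 0.815 to 0.849 for lung over bone marrow, 1.47 to 1.55 for bone marrow over culture and 1.24 to 1.28 for lung over culture over 4 scalings. The range of levels per length was 45.8-fold by merged exons and 72.3-fold by principal transcripts. At 5 to 14 reads per library, Mrpl53 was too shallow to test.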
